A study of Mus musculus with 2 samples.

Results

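Receptors and partner proteins through which phagocytes take up dying cells and modified lipids were compared between LPS-treated dendritic cells of wild type and miR155-/- mice. The set held 10 genes chosen by symbol: the receptor kinases Mertk, Axl and Tyro3, their ligand Gas6, the scavenger receptors Cd36, Msr1, Marco and Cd163, the lipid-sensing receptor Trem2 and the lipid carrier Apoe. The platform annotation assigned 20 probe sets to exactly 1 of these genes, out of 34945 probe sets naming 1 gene and 18193 genes in all. The wild type + LPS sample and the miR155-/- + LPS sample each came from C57BL/6J mice, the second from knockouts that lack the microRNA miR-155, and each was measured on 1 Affymetrix array. Marrow cells were kept for 7 days with 20 ng/ml GM-CSF, a growth factor that yields dendritic cells and macrophage-like cells together, and then received 10 ng/ml LPS, a bacterial cell wall component. Neither the age and number of the mice nor the duration of LPS exposure is stated in the labels. The labels call the cells dendritic cells, except that the growth protocol names macrophages. There were no untreated cells, so that only the genotype could be compared, and with 1 array in each genotype no p-value was computed.

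Dying cells expose phosphatidylserine on their surface. Gas6 and protein S bridge this lipid to the receptor tyrosine kinases Tyro3, Axl and Mertk, known together as TAM receptors, which drive engulfment and also restrain Toll-like receptor signalling in dendritic cells and macrophages. Scavenger receptors bind oxidised or acetylated lipoproteins, bacteria and apoptotic cells, and Trem2 binds lipids and lipoproteins such as those carrying Apoe, signalling through the adaptor Tyrobp (DAP12).

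The mature forms of the deleted microRNA are shown because its absence defines the comparison. Both are RefSeq sequences on GRCm38.p6 (chr16:84714143-84714165 and chr16:84714182-84714202, plus strand), and capitals mark the seed, bases 2 to 8, which pairs with target transcripts.
mmu-miR-155-5p: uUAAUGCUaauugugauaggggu
mmu-miR-155-3p: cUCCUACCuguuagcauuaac
The host transcript Mir155hg had a normalized intensity of 1136 in wild type and 159 in miR155-/- cells, 7.13-fold lower; the labels do not give the extent of the deletion relative to this probe set. Target sites in the transcripts of the 10 genes were not analysed here.

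Facts of the arrays bear on every value below. The deposited median intensity was 58.4 on the wild type and 78.3 on the miR155-/- array, so values were quantile normalized and all differences are miR155-/- minus wild type, on the log2 scale, relative to the bulk of genes. A gene counted as measured when at least 1 array lay above the floor, the median of all normalized values (an intensity of 67.6). Where only 1 array did, the size is a lower bound, written "at least". For a gene with several probe sets, the one with the highest average signal was used. The only error that could be measured was the SD of 0.29 between differences of probe sets for the same gene, which holds no variation between mice or cultures. Control probe sets for 18S ribosomal RNA ranged from 95.1 to 126.1 in deposited intensity for wild type and from 389.2 to 581.9 for miR155-/-, and the part of this difference in the results was not tested. Signal at the 3' end of Actb was 1.28 times that at its 5' end in wild type and 1.25 times in miR155-/-, and for Gapdh 0.84 and 0.88 times.

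Most measured uptake genes had a higher signal in miR155-/- cells. Mertk had the highest difference among those above the floor on both arrays, and the probe sets of Trem2 disagreed in sign. Of the 10 genes, 9 were measured, 8 with a higher and 1 with a lower signal in miR155-/- cells. Among all 11878 measured genes, 51.5% were higher. Tyro3, Gas6 and Apoe were above the floor only in miR155-/- cells and could therefore only count as higher. Of the 6 genes with neither array at the floor, 5 were higher, with a median difference of 0.29, against 0.01 over all 10355 such genes, of which 51.8% were higher. At least 1.5-fold higher were Mertk, Trem2 and Tyro3, 3 of the 9, where 4.57% of all measured genes passed that size, and none of the 9 was 1.5-fold lower, as 4.1% of measured genes were. Gas6 and Cd36 brought the number that exceeded the probe set SD to 5, against 17% of measured genes. Of the 5, only Mertk, Trem2 and Cd36 passed the floor on each array. Of the 6 that passed the floor on each array, 2 (Mertk and Trem2) were at least 1.5-fold higher, against a background of 4.08%, and none was 2-fold higher. The lower bounds of Tyro3, Gas6 and Apoe also lay under 2-fold, a size that 0.572% of measured genes reached after the floor, and do not say whether these genes passed it. Because these genes were selected with earlier results of the same arrays known, the counts describe these arrays and are no test. In a bulk sample, fewer cells of a type and less RNA per cell cannot be told apart.

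**Figure D1:**
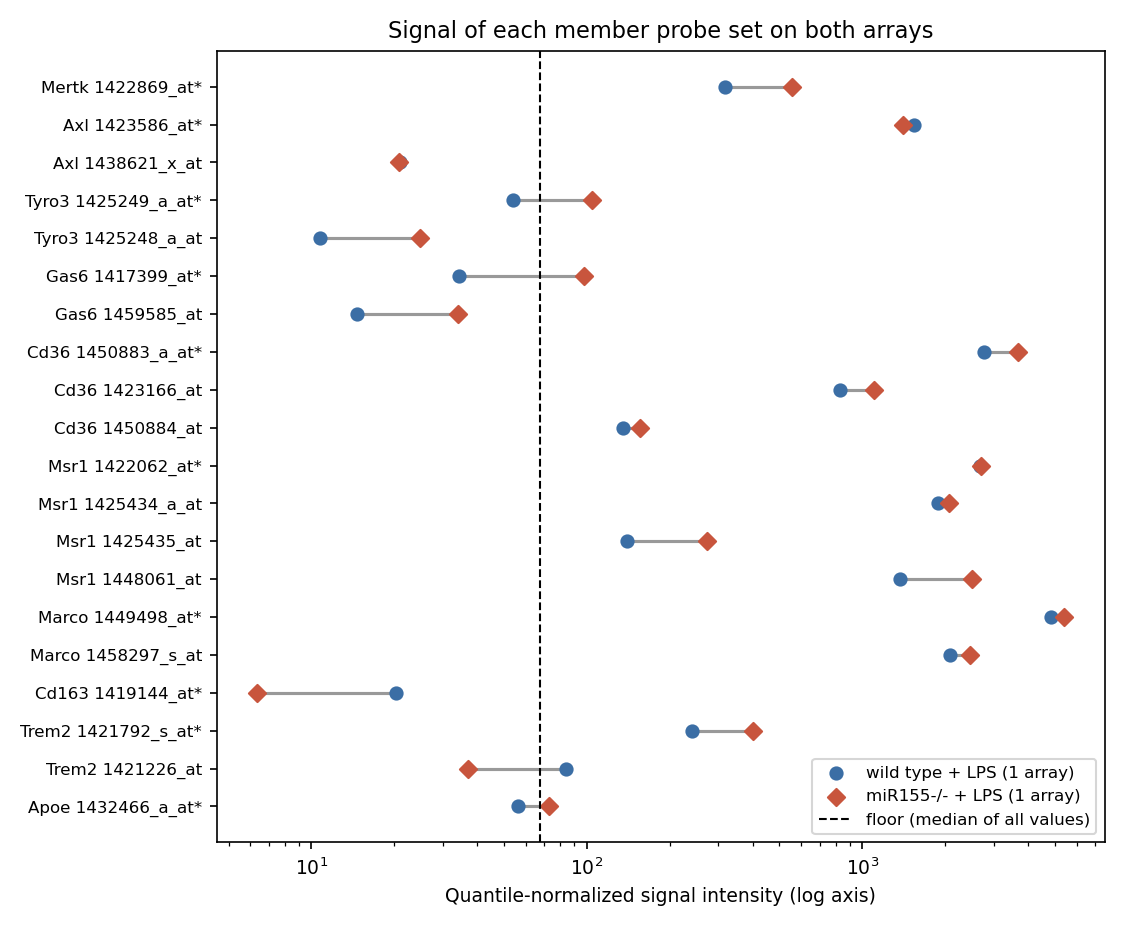
Quantile-normalized intensity (log axis) of each of the 20 probe sets on the wild type array (circles) and the miR155-/- array (diamonds). An asterisk marks the probe set that represents its gene and the dashed line the floor of 67.6. Mertk, Cd36, Msr1 and Marco have the diamond to the right of the circle at every probe set, Trem2 at 1 of 2, and 4 probe sets of Axl, Tyro3, Gas6 and Cd163 have both marks below the floor.

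Among the TAM receptors, Mertk was higher in miR155-/- cells by more than the probe set SD and Axl was not. Mertk, which drives engulfment of apoptotic cells by macrophages, had a normalized intensity of 318 in wild type and 558 in miR155-/- cells. That is 1.75-fold higher, a difference of 0.81, the highest at the probe set used among the 6 uptake genes above the floor on both arrays. Without the floor, Gas6 (1.51) and Tyro3 (0.96) had higher differences, from wild type values below it. Among the 3960 measured genes of middle level, Mertk and Trem2 included, 4.09% were at least 1.5-fold higher. It has 1 probe set, so no second probe set bears on the value. Axl, the TAM receptor typical of dendritic cells exposed to inflammatory stimuli, had 1542 in wild type and 1400.5 in miR155-/- cells, a difference of -0.14. Its sign depended on the scaling (0.47 on the deposited values, 0.05 with centring on the median, 0.14 with scaling on hybridisation controls), but it lay below the median of all measured genes in each of the 9 settings run. The second Axl probe set was below the floor on both arrays (21.0 and 20.7).

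Tyro3, the TAM receptor best known from the nervous system, was dim. Its signal was 53.8 in wild type, below the floor, and 104 in miR155-/- cells, at least 1.54-fold higher. Among the 3959 measured genes of low level, where it lay, 7.65% were at least 1.5-fold higher. Its other probe set was below the floor on both arrays, at 10.7 and 24.7. Gas6, the ligand of all TAM receptors, had 34.3 in wild type and 97.8 in miR155-/- cells, at least 1.45-fold higher, a bound that does not say whether it passed 1.5-fold. The second Gas6 probe set lay below the floor on both arrays, at 14.7 and 33.9. The miR155-/- value was thus the higher one at each Tyro3 and Gas6 probe set, but at intensities where the floor leaves 1 usable value per gene.

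Cd36, Marco and Msr1 lay among the 3959 measured genes of high level, of which 1.97% were at least 1.5-fold higher, and none passed that size at the probe set used. Cd36, a receptor for oxidised lipoproteins, long-chain fatty acids and apoptotic cells, had 2761 in wild type and 3677 in miR155-/- cells at the probe set used, 1.33-fold higher. Its other probe sets went from 831 to 1105 (1.33-fold) and from 136 to 157 (1.15-fold). All 3 Cd36 probe sets were therefore higher in miR155-/- cells, and 2 of them by more than the probe set SD. Marco, a class A scavenger receptor that binds bacteria and particles, had 4860 and 5420 at the probe set used, a difference of 0.16, and 2090 and 2462 at the other, a difference of 0.24. Both Marco differences were positive and smaller than the SD.

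Msr1, the class A receptor for acetylated lipoproteins and bacterial products, split by probe set. The probe set used had 2666 in wild type and 2701 in miR155-/- cells (0.02), and a second had 1885 and 2060.4 (0.13). The others went from 1372 to 2501, which is 1.82-fold higher, and from 140 to 273, which is 1.95-fold higher. All 4 pointed the same way, yet the first pair lay within 1 SD of 0 and the second pair beyond it, the last of them 3.28 times the SD. The annotation used here does not say which part of the transcript each probe set covers. Cd163, a macrophage receptor for haemoglobin bound to haptoglobin, lay below the floor on both arrays (20.4 and 6.34), so no difference is given for it.

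**Figure D2:**
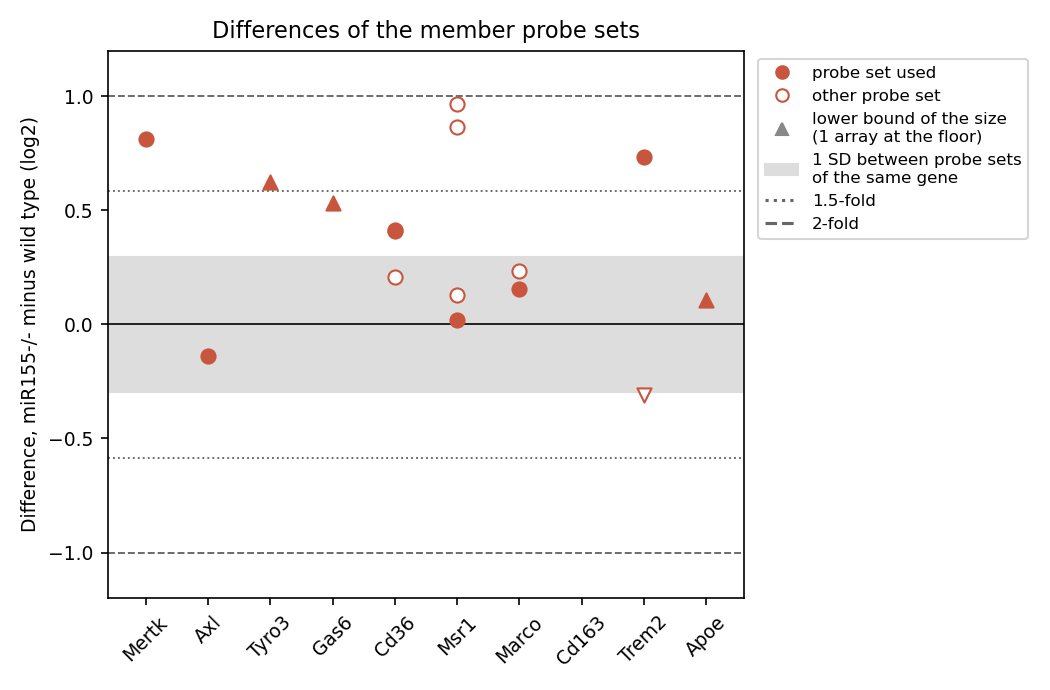
Difference (log2, miR155-/- minus wild type) of each measured probe set by gene, filled for the probe set used, with triangles for lower bounds of the size. The grey band is 1 SD between probe sets of the same gene (0.29), and dotted and dashed lines mark 1.5-fold and 2-fold. Mertk, 1 Trem2, 1 Tyro3 and 2 Msr1 probe sets lie above the 1.5-fold line, and no point lies above 2-fold, triangles being lower bounds.

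Trem2 gave opposite signs at its probe sets. The probe set used, whose name ends in _s_at, the manufacturer's mark for probes that can match more than a single transcript, had 242 in wild type and 402 in miR155-/- cells, 1.67-fold higher. The other had 83.9 in wild type and 37.1, below the floor, in miR155-/- cells, at least 1.24-fold lower. Trem2 was therefore lower by 0.22 or more wherever the processing used the second probe set, and its direction is not settled by these arrays. Apoe, which carries cholesterol and is a target of the lipid-sensing LXR receptors, had 56.0 in wild type and 72.9 in miR155-/- cells, at least 1.08-fold higher, with the wild type value below the floor and the miR155-/- value just over it.

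Over all 16 measured probe sets of these genes, 14 were higher in miR155-/- cells, where 50.9% of the 20607 measured probe sets naming 1 gene were. Those of Tyro3, Gas6 and Apoe passed the floor only in miR155-/- cells and could only count as higher. The second Trem2 probe set passed it only in wild type and could only count as lower. Msr1, Cd36 and Marco gave 4, 3 and 2 of the 14. Of the 16, 5 were at least 1.5-fold higher, the Tyro3 probe set among them, against a background of 4.77%. Probe sets of a gene share its transcript and are not replicates. The other 4 probe sets were below the floor on both arrays.

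**Figure D3:**
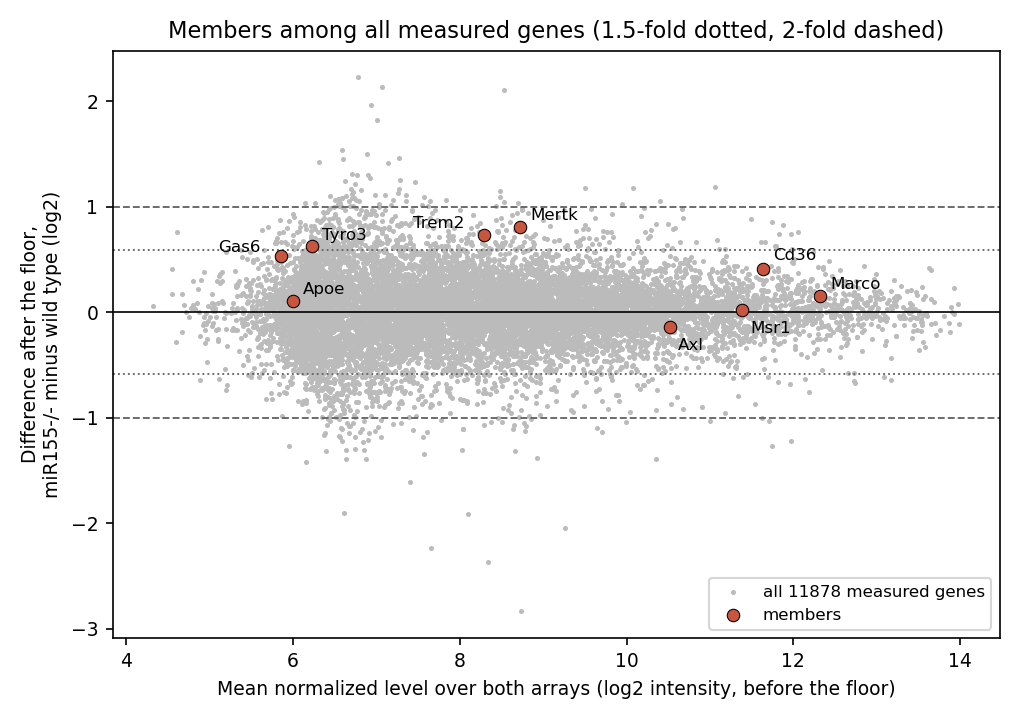
Difference after the floor (log2, miR155-/- minus wild type) against mean normalized level (log2 intensity) for 11878 measured genes in grey, with the 9 measured uptake genes in red. Mertk and Trem2 lie above the dotted 1.5-fold line at middle level, Tyro3 just above it at low level, and Axl, Msr1, Marco and Cd36 between the 1.5-fold lines at high level.

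The promoters of Mertk, Trem2 and Cd36 are shown because these genes passed the floor on each array and differed by more than the SD at the probe set used. Each is the 250 bases before an annotated start (RefSeq, GRCm38.p6), written 5′ to 3′ on the gene's strand. The windows are chr2:128698665-128698914 (plus) for Mertk, chr17:48346151-48346400 (plus) for Trem2 and chr5:17835897-17836146 (minus) for Cd36. The Cd36 window lies inside the annotated gene (chr5:17781690-17888959), so its start is not the outermost one. Capitals mark matches, on either strand, to the motifs searched: GAGGAAGT for PU.1, TGANTCA for AP-1, TTNNGCAA for C/EBP, AGGTCA for nuclear receptors and TGCTGAC for MAF factors.
Mertk: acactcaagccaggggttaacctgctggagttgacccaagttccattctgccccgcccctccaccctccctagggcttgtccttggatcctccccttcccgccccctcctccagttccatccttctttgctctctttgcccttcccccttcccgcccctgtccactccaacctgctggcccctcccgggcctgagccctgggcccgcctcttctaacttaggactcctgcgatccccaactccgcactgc
Trem2: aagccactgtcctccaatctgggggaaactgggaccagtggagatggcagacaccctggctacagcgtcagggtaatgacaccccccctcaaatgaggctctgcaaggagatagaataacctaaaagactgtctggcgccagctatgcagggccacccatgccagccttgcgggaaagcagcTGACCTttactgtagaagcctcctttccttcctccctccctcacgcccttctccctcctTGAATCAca
Cd36: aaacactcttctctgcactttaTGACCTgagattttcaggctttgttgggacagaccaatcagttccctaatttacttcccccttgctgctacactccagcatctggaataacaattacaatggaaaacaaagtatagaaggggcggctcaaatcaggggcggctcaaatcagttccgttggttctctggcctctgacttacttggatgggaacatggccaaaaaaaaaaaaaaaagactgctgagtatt
The Trem2 window held an AP-1 match, at 9 to 3 bases before the start, which 6.75% of 32817 mouse promoters hold in the same window. It also held a nuclear receptor match, as did Cd36, and 14.0% of promoters hold one. The Mertk window held none of these motifs. Of the 9 uptake genes with a promoter in the table, 1 had an AP-1 match, 2 a nuclear receptor match, and none a PU.1, C/EBP or MAF match, which 2.44%, 9.57% and 3.81% of promoters hold. These matches describe the letters and are not evidence of binding.

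Genes that act with these receptors were described from lists of known members. In each list, a gene above the floor on 1 array only could only count as higher on that array. Of 11 measured TAM ligands and bridging proteins, Gas6 among them, 8 were higher and 3 lower (median 0.09). Pros1, which encodes protein S, had 82.7 and 115 (1.39-fold higher), and Mfge8, which bridges phosphatidylserine to integrins, had 772 and 959 (1.24-fold higher). Thbs1, the secreted Cd36 ligand thrombospondin 1, had 8507 and 5408, 1.57-fold lower with 2 of 2 probe sets, and was the only gene of that list above the floor on both arrays that passed 1.5-fold. For the complement protein C1qb, which also coats dying cells, the intensities were 554 and 593.

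Other receptors for apoptotic cells differed in both directions. Of 16 measured, 10 were higher and 6 lower (median 0.11). Lrp1, an endocytic receptor that also takes up Apoe-bearing lipoproteins, had 888 in wild type and 1413 in miR155-/- cells, 1.59-fold higher with 2 of 2 probe sets. Itgav, the integrin alpha V chain that binds Mfge8, had 1492 and 924, 1.61-fold lower with 2 of 2 probe sets. Ager was at least 1.54-fold higher from below the floor, and Adgrb1 (BAI1) had a difference of -0.57. Timd4, the phosphatidylserine receptor of resident macrophages, was below the floor on both arrays (5.02 and 6.64). The numbers passing 1.5-fold were 2 higher and 1 lower of 16, where 4.57% and 4.1% of all measured genes did. Of the 2 higher, Ager passed the floor only in miR155-/- cells and could only count as higher.

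Of 14 other measured scavenger receptors, 7 were higher and 7 lower (median 0.02). Of the 7 lower ones, 3 passed the floor only in wild type and could only count as lower. Mrc1, the mannose receptor, had 138 and 288, 2.08-fold higher. Scarb1, the high-density lipoprotein receptor and a class B relative of Cd36, had 501 and 780.5, 1.56-fold higher with 3 of 3 probe sets. Ssc5d was at least 1.61-fold lower. Lrp1 belongs to this list too, and the lists share further genes, so their medians are not independent.

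Downstream of the receptors, engulfment genes differed little. Of 21 measured, 7 were higher and 14 lower (median -0.03), and none above the floor on both arrays passed 1.5-fold in either direction. Trio, an exchange factor for Rac and RhoG, had a difference of 0.58 with 1 of 3 probe sets higher, and Elmo1, a scaffold of the Rac-activating complex, -0.49 with 0 of 2 higher. Rhog (-0.29) and Crkl (-0.28) followed. For Rac1 the intensities were 4117 and 4018.

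In the Trem family and its signalling partners, 6 of 12 measured genes were higher and the median was 0.03. Tyrobp, the adaptor of Trem2, had 5270 and 6195 (0.23), and Inpp5d, the lipid phosphatase SHIP1 and a reported miR-155 target, had a difference of 0.60 with 1 of 2 probe sets higher. Trem1 (-0.51, 2 of 2 probe sets lower) and Trem3 (-0.41) were lower, and Treml1 was at least 1.41-fold higher from below the floor. Tyrobp was named after its value was seen, as were Timd4, C1qb, Rac1, Abca1 and Sirpa. Among the cell type markers, so were Adgre1, Csf1r, Lyve1, Itgax, Cd74, Xcr1, Flt3, Zbtb46 and Cd209a.

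Genes that handle the lipid of engulfed cells had a median of 0.03, with 13 of 19 higher. Lipa, the lysosomal acid lipase, had 2864 and 4424, 1.54-fold higher with 3 of 3 probe sets, and Nceh1, a cholesteryl ester hydrolase, 291 and 459, 1.58-fold higher with 3 of 3. Nr1h3, which encodes LXR alpha, had 122 and 162, a difference of 0.41. Apoc2, the cofactor of lipoprotein lipase encoded in the Apoe gene cluster, had 1114 and 621, 1.79-fold lower, and Abca1, the LXR-driven cholesterol exporter, had a difference of -0.26 with 0 of 3 probe sets higher. Of 9 measured eat-me and don't-eat-me signal genes, 5 were higher and 4 lower (median 0.02). Siglecg (-0.42), the scramblase gene Ano6 (0.34), Atp11a (0.27) and Cd47 (-0.21, with 0 of 5 probe sets higher) had the largest differences, and Sirpa, the receptor of Cd47, had 0.11. None of these 9 passed 1.5-fold.

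**Figure D4:**
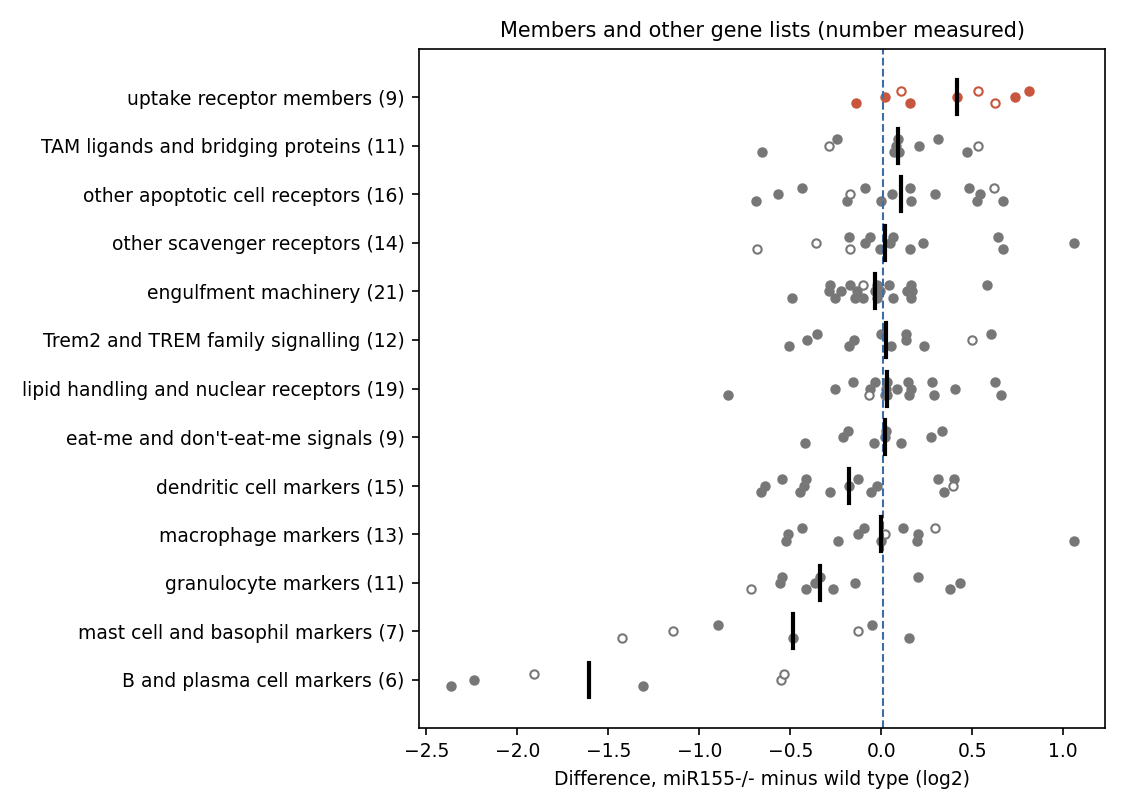
Difference (log2, miR155-/- minus wild type) of each measured gene in the uptake set (red) and in 12 other lists (grey), open for genes above the floor on 1 array only. Black bars are list medians and the dashed line is the median of all measured genes (0.01). The median of the uptake genes is 0.41 over 9 genes, 3 of them lower bounds, and those of the 7 uptake-related lists lie between -0.03 and 0.11.

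Markers of the cell types in such cultures are given because several uptake genes are better known from macrophages. Of 13 measured macrophage markers, 7 were higher and 6 lower (median 0.00). Of the 7 higher ones, 2 passed the floor only in miR155-/- cells and could only count as higher. The summed intensity of the macrophage markers was 46986 in wild type and 45562 in miR155-/- cells. Adgre1, an adhesion receptor that marks macrophages, had 7458 and 8568, Csf1r 9826 and 11268, and Mrc1 was the only one above the floor on both arrays that passed 1.5-fold. Maf (-0.53, with 1 of 2 probe sets higher), Siglec1 (-0.51) and Cd14 (-0.43) were lower. Lyve1 and Timd4 were below the floor on both arrays. Of 15 measured dendritic cell markers, 4 were higher and 11 lower (median -0.18) and summed intensities of 48770.1 and 41992. Itgax, which encodes CD11c, had 4290.5 and 5331, whereas Irf8 was 1.58-fold, Cd83 1.56-fold and Ccr7, the receptor of migrating dendritic cells, 1.46-fold lower, and Ly75 had a difference of -0.45. Xcr1 was below the floor on both arrays. Of the dendritic cell list, Itgax, Cd74 (11584 and 11156) and Ccr7 were thus far above the floor on both arrays. Flt3 (62.8, below the floor, and 88.8), Zbtb46 (188 and 140) and Cd209a (90.1 and 119) of that list were dim. The macrophage genes Adgre1 and Csf1r were far above the floor on both arrays too. On the deposited values, with no scaling, the median of dendritic cell markers was 0.31 and that of macrophage markers 0.41, both under the shift of 0.54 at the median measured gene, and that of the uptake genes was 0.77.

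The other marker lists had negative medians, although the summed granulocyte intensity was higher in miR155-/- cells. With no scaling the granulocyte median was 0.18, under the shift of 0.54 at the median measured gene. Of 11 measured granulocyte markers 8 were lower (median -0.34, summed intensity 12105 and 14194), with Prtn3 1.47-fold, Camp 1.46-fold and Ltf at least 1.65-fold lower, and S100a8 1.35-fold higher. Of 7 measured mast cell and basophil markers 6 were lower (median -0.49, sum 3510.1 and 1877), among them Mcpt8 at least 2.68-fold, Cpa3 at least 2.21-fold, Hdc 1.86-fold and Gata2 1.40-fold. All 6 measured B and plasma cell markers were lower (median -1.61, sum 2092 and 574), among them Ighm 5.16-fold, Jchain 4.71-fold, Mzb1 at least 3.75-fold and Igha 2.48-fold, although 3 of 8 Ighm probe sets were higher. In each of these last lists 3 genes passed the floor through wild type alone and could only count as lower. The part of such cells in the uptake gene values was not tested.

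**Figure D5:**
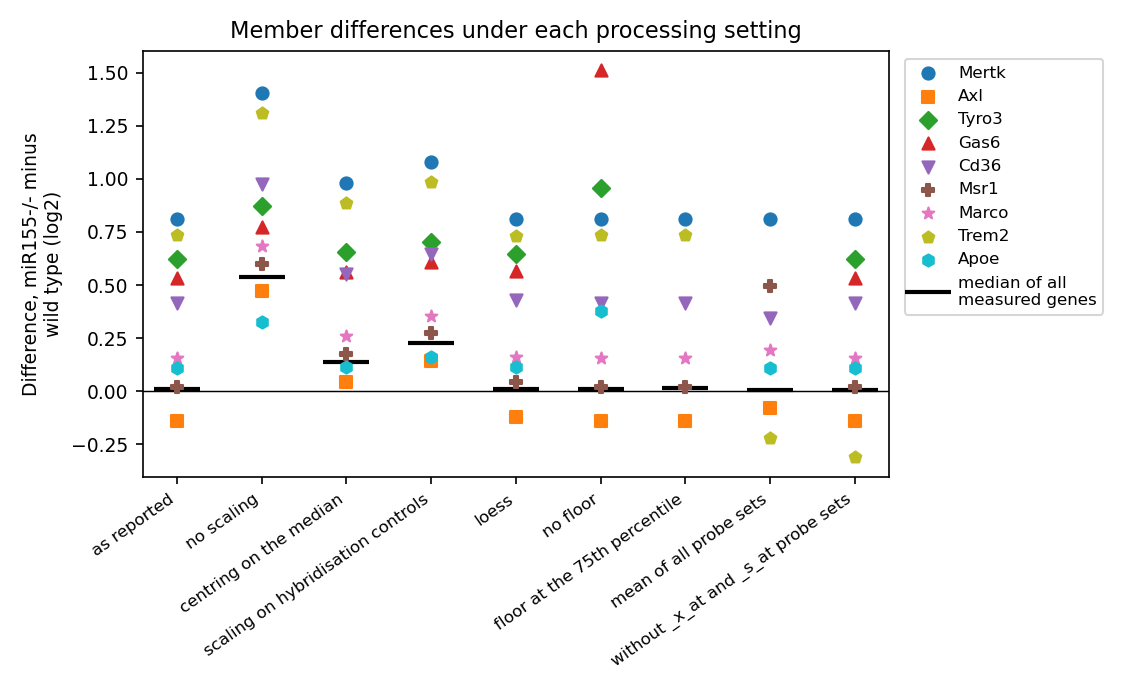
Difference (log2, miR155-/- minus wild type) of each uptake gene as reported and under 8 other processing settings, with the median of all measured genes as a black bar. Mertk, Cd36, Msr1 and Marco lie above that bar in each of the 9 settings and Axl below it in each. Apoe lies above it in 5 of the 8 settings that measured it. Trem2 turns negative in the settings that average its probe sets or leave out _x_at and _s_at probe sets, and Cd163, below the floor on both arrays, is not shown.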

How the data were processed

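Each genotype gave 1 Affymetrix array of biotin-labelled cRNA made from 6 ug of total RNA, per the labels' protocols. The authors deposited 1 table of linear signal intensity for 45101 probe sets on each array, with no statement of the summarising algorithm, detection calls or scaling. Array medians differed by 34.1%, so the deposited intensities of 45037 probe sets (64 controls left out) were taken to log2 and quantile normalized (Python 3.11.15, numpy 2.4.6, pandas 2.3.3), as was set for a gap over 10%. A difference in total signal between the cultures cannot be seen after this step. The floor of 67.6 was chosen here and detects nothing by itself. The platform annotation named the genes, and symbols were updated through gene identifiers in a RefSeq table (GRCm38.p6). The probe set SD rested on 11653 probe sets of 4410 genes. Having 1 array per genotype limits the precision and allows no test. The genes described, the lists and the tests were chosen with earlier results of these data known. Named were all uptake genes with every probe set and up to 4 genes of each list with the largest differences, plus those said to be named after their values were seen. As 2 arrays give 1 difference per gene, no gene was named for likeness of pattern. The scaling steps were tested on simulated data. Alternatives covered 4 scalings (none, median, hybridisation controls, loess with statsmodels 0.14.6), 2 floors and 2 choices of probe set.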

Additional observations from a re-analysis of the deposited data

How the results depend on the processing

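Mertk, Cd36, Msr1 and Marco were higher in miR155-/- cells under each of the 8 alternatives, from 0.81 to 1.41, 0.34 to 0.98, 0.02 to 0.60 and 0.16 to 0.68. The difference of Trem2 was -0.22 with the mean of all probe sets and -0.31 without _x_at and _s_at probe sets, since both settings bring in its second probe set. Scaling moved the median of all measured genes, to 0.54 with no scaling, 0.14 with centring on the median and 0.23 with scaling on hybridisation controls. Apoe lay below these medians, at 0.33, 0.11 and 0.16, and above the median in 5 of the 8 settings that measured it. With no scaling the median of the uptake genes was 0.77, 7 were at least 1.5-fold and 2 at least 2-fold higher, where 43.5% and 7.09% of all measured genes passed those sizes. With scaling on hybridisation controls 5 were at least 1.5-fold and 1 at least 2-fold higher (background 12.2% and 1.52%). With no floor 4 were at least 1.5-fold and 1 at least 2-fold higher (background 13.7% and 7.08%). All 10 genes counted in that setting and 2 were lower, Axl and Cd163. The Cd163 values were 20.4 in wild type and 6.34 in miR155-/- cells, both under the floor used elsewhere. The median of 0.41 as reported was lower in other settings: 0.16 without _x_at and _s_at probe sets, 0.20 with the mean of all probe sets and 0.29 with the floor at the 75th percentile. Measured uptake genes higher in miR155-/- cells numbered 5 of 6 with the floor at the 75th percentile and 5 of 7 with the mean of all probe sets. In each of these settings 5 lay above the median of all measured genes. At least 1.5-fold higher were 2 with that floor (background 2.1%) and 1 with the mean of all probe sets (4.69%). Fewer genes were measured in these settings. No paired analysis was possible because each genotype has 1 array.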
